A study of Mus musculus with 4 samples.

Results

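The tubulin genes and the genes for enzymes that fold, nucleate or chemically modify tubulin were followed in sorted mouse spermatogenic cells. Members were defined by gene symbol, with earlier results of these data known. They are the α-, β-, γ-, δ- and ε-tubulins, the γ-tubulin complex proteins (*Tubgcp*), the tubulin folding cofactors (*Tbca* to *Tbce*) and the tubulin tyrosine ligase-like enzymes (*Ttll*). The cytosolic carboxypeptidases (*Agtpbp1* and *Agbl*), the tubulin acetyltransferase *Atat1* and the deacetylase *Hdac6* were also taken. This gave 51 of the 24411 genes in the files. Of these, 43 averaged 1 TPM or more across the libraries and were among the 14512 genes tested. TPM, the unit of the files, is a share of all transcripts in a library, corrected for transcript length, so levels of different genes can be set beside each other.

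RNA was sequenced from GFP-positive cells sorted from testes at postnatal day 18 (P18). All mice carried a knock-in (KI) allele, *Rec8-3xFLAG-HA-p2A-GFP*, which makes GFP together with the meiotic cohesin REC8 and so marks cells from meiotic entry onwards. The 2 control libraries came from *Zfp541*+/- testes, 1 heterozygous and 1 homozygous for the KI allele, and it is not stated which is which. The 2 libraries labelled *Zfp541* KO (the KO-labelled libraries) came from individual testes homozygous for the KI allele, with Exon1 to Exon13 of *Zfp541* deleted on both chromosomes by Cas9. ZFP541 is a zinc-finger and SANT domain protein of pachytene spermatocytes, and the controls, with 1 functional copy, are not wild type. The labels name a mixed C57BL/6 and CBA strain, whereas the methods of the study name C57BL/6. *Zfp541* RNA stood at 112 and 72.2 TPM for the controls against 136 and 151 TPM for the KO-labelled libraries, a log2 fold change of 0.67 (adjusted p = 0.371, limma). Its RNA was therefore not lower where the label says KO, TPM per gene does not separate deleted from remaining exons, and every direction given here rests on the label.

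Microtubules are polymers of α- and β-tubulin dimers, which fold with the help of the chaperonin CCT and a set of cofactors and are nucleated from a ring that contains γ-tubulin. The C-terminal tails of tubulin project from the microtubule surface, and glutamylases and glycylases of the TTLL family add side chains to glutamates there, while cytosolic carboxypeptidases remove glutamates again. In the male germ line these systems serve the meiotic spindle, the manchette that shapes the spermatid head and the axoneme of the sperm tail. Spermatocytes use a testis α-tubulin, made from *Tuba3a* and *Tuba3b*, beside the isotypes of dividing somatic cells.

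The ends of the coding sequences show what the modifying enzymes work on. Below are the last 45 coding bases before the stop codon for 7 isotypes, chosen to show abundant ones and, with the low *Tuba1c* and *Tuba4a*, ends that differ, read from GENCODE transcripts on GRCm38, 5′ to 3′ on the strand of the gene, with glutamate codons (GAA or GAG) in capitals. Each stretch lies in the last exon. *Tuba3a* is at chr6:125278361-125278405 on the minus strand, *Tuba3b* at chr6:145621340-145621384 on the plus strand, *Tuba1b* at chr15:98931585-98931629 on the minus strand, *Tuba1c* at chr15:99037962-99038006 on the plus strand, *Tuba4a* at chr1:75215625-75215669 on the minus strand, *Tubb4b* at chr2:25222311-25222355 on the minus strand and *Tubb5* at chr17:35834985-35835029 on the minus strand.
Tuba3a: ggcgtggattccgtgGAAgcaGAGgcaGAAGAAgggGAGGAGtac
Tuba3b: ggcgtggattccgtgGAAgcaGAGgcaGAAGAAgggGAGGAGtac
Tuba1b: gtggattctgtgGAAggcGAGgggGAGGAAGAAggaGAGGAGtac
Tuba1c: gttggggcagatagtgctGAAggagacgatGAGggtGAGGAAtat
Tuba4a: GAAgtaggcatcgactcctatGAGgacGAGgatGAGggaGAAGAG
Tubb4b: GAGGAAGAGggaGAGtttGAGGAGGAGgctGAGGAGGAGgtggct
Tubb5: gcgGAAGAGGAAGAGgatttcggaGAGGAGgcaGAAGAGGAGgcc
The stretch is identical, base for base, in *Tuba3a* and *Tuba3b* and holds 6 glutamate codons, against 7 in *Tuba1b*, 4 in *Tuba1c* and 6 in *Tuba4a*. *Tubb4b* holds 10 and *Tubb5* holds 9. *Tuba3a*, *Tuba3b*, *Tuba1b* and *Tuba1c* end in a tyrosine codon, the substrate of the cycle in which that last residue is removed and put back. *Tuba4a* ends in a glutamate codon instead.

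No member passed an FDR of 0.05 when the KO-labelled libraries were compared with the controls by limma, nor did any of the 14512 genes tested (0% called). The adjusted p of members ran from 0.319 to 0.998, and the smallest over all genes was 0.310. At an unadjusted limma p under 0.05, 1 of the 43 members was higher, against 10.7% of all genes, and 2 of the 43 were lower, against 3.73% of all genes. The 2 values of each group can also be read for overlap. Both KO-labelled libraries lay above both controls for 9 members (20.9%), where 38.6% of all genes did so, and below both controls for 12 members (27.9%), where 12.1% of all genes did so. Groups overlapped for the other 22. The median log2 fold change was -0.29 over the members and 0.28 over all genes tested, and 33 of the 43 members lay below the all-gene median. All-gene values depend on scaling, since a median-ratio scaling moved the all-gene median from 0.28 to -0.0044 and gave 4 members higher and 17 lower, beside 23.1% and 22.3% of all genes. Fold changes are differences of log2(TPM + 1), which understates those of low genes. Nothing says whether these particular libraries came from littermates or a shared sorting day (the study compared littermates or age-matched animals in general), and p-values measure only the spread between them.

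The libraries also differed in the RNA of cell type markers. Leptotene and zygotene markers, genes of early meiotic prophase, summed to 2234 and 2659 TPM in the controls, against 4483 and 4628 TPM in the KO-labelled libraries. Of these markers 10 of 12 (83.3%) were higher in both KO-labelled libraries, beside 38.6% of all genes. Pachytene and diplotene markers summed to 9593 and 4624 TPM in the controls, against 3687 and 5028 TPM in the KO-labelled libraries, an overlap. Of these markers 8 of 15 (53.3%) were lower in both, beside 12.1% of all genes, and 1 was higher. Elongating spermatid markers were at 451 and 154 TPM against 20.3 and 27.4 TPM, most of it *Hspb9* in the controls (429 and 144 TPM against 3.36 and 8.50 TPM) and *Oaz3* in the KO-labelled libraries (10.2 and 9.05 TPM against 13.3 and 14.9 TPM), while *Prm3* was at 0 and *Odf1*, *Prm2*, *Smcp* and *Akap4* stayed under 1 TPM in every library. Leydig cell markers, of the steroid-producing cells between the tubules, ran from 18.0 TPM in control 2 to 2910 TPM in control 1 around 331 and 503.6 TPM in the KO-labelled libraries. Macrophage markers were at 2540 TPM in control 1, 30.3 TPM in control 2, and 2162 and 1584 TPM in the KO-labelled libraries. Sertoli markers summed to 1369 and 1601 TPM against 2053 and 1645 TPM, with 4 of 13 (30.8%) higher in both KO-labelled libraries. Peritubular myoid markers summed to 12.3 and 18.9 TPM against 25.8 and 19.2 TPM. Round spermatid markers (59.9 to 137 TPM), spermatogonial markers (527 to 1166 TPM) and red blood cell markers (28.8 to 374 TPM) overlapped between the groups. *Rec8*, the gene behind the sort, was at 7.05 and 27.9 TPM in the controls, against 27.7 and 19.4 TPM in the KO-labelled libraries. In such bulk samples fewer cells of a type and less RNA per cell cannot be told apart, and the part of these marker differences in the tubulin values was not tested.

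**Figure D1:**
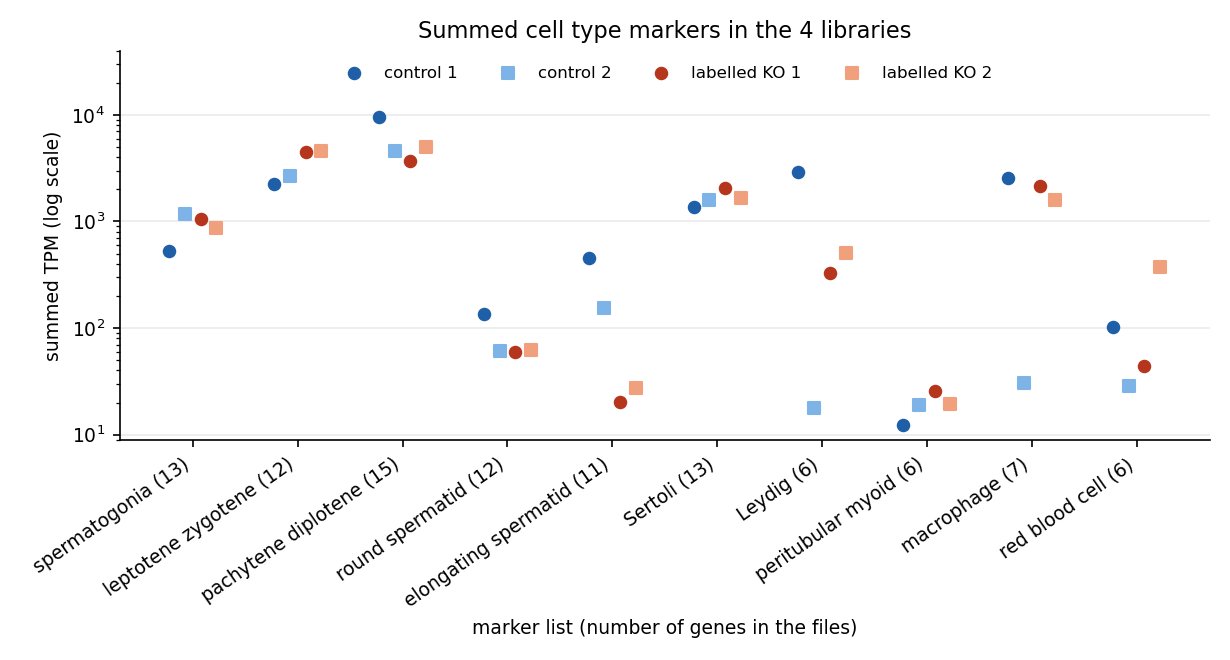
Summed TPM (log axis) of the cell type marker lists in each of the 4 libraries, with circles and squares for libraries 1 and 2 of each group. Leptotene and zygotene markers are higher in both KO-labelled libraries (4483 and 4628 TPM) than in both controls (2234 and 2659 TPM), and control 1 and control 2 stand far apart for Leydig (2910 and 18.0 TPM) and macrophage markers (2540 and 30.3 TPM).

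The α-tubulin RNA of these cells was mostly the testis isotype, and both of its genes had lower TPM in both KO-labelled libraries as deposited. *Tuba3b* was the most abundant member of all, at 2958 and 2533 TPM in the controls, against 1581 and 1953 TPM in the KO-labelled libraries. The groups did not overlap, with means of 2746 ± 300.3 and 1767 ± 263 TPM (SD, n = 2 each) and a log2 fold change of -0.64 (SE 0.34, adjusted p = 0.437). After quantile normalization the groups of *Tuba3b* overlapped and its log2 fold change was -0.38. *Tuba3a*, whose coding sequence gives the same protein (100% identical residues), was at 2298 and 2044 TPM in the controls. It was at 1019 and 1177 TPM in the KO-labelled libraries. Its values were the more clearly separated, with means of 2171 ± 179.7 and 1098 ± 111 TPM (SD, n = 2 each), a 1.98-fold lower level and a log2 fold change of -0.98 (SE 0.29, adjusted p = 0.319). *Tuba3a* was 1 of the 2 members that were lower at an unadjusted p under 0.05 (unadjusted p = 0.0243 from limma's fit across all genes). The coding sequences of the pair are 97.0% identical, and 19.9% of the 75-base windows of *Tuba3a* and 18.9% of those of *Tuba3b* occur in another gene, mainly each other, so that how reads were split between them is uncertain while their sum is less so.

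The α-tubulins of somatic and dividing cells had another pattern, in which control 2 stood above the other libraries. *Tuba1b* was at 322 TPM for control 1, 569 TPM for control 2, and 336 and 305 TPM for the KO-labelled libraries, and the groups overlapped. *Tuba1a*, best known from neurons, was at 148 and 374 TPM against 189 and 194 TPM, with control 1 the lowest and control 2 the highest of all. *Tuba1c* was at 44.2 and 70.2 TPM against 40.2 and 42.8 TPM, lower in both KO-labelled libraries by a margin that was small beside the gap between controls (log2 fold change -0.42, SE 0.30, adjusted p = 0.544). These isotypes share between 56.7% and 71.9% of their 75-base windows with other genes, and exons of *Tuba1a* and *Tuba1b* overlap another annotated gene, so their individual levels are uncertain. *Tuba4a*, an α-tubulin of muscle and brain, was at 5.84 and 15.5 TPM against 9.04 and 5.15 TPM, and 48.6% of its exon bases overlap *Stk16*. *Tuba8* was at 0.35 and 0.24 TPM against 0.16 and 0.13 TPM and *Tubal3* at or under 0.24 TPM, below the level tested.

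Among the β-tubulins, *Tubb4b*, the isotype of cilia and of the testis, made up most of the RNA, at 1374 and 1858.5 TPM in the controls, against 1145 and 953 TPM in the KO-labelled libraries. Both KO-labelled values lay below both controls (means 1616 ± 343 and 1049 ± 136 TPM, SD, n = 2 each), with a log2 fold change of -0.61 (SE 0.31, adjusted p = 0.424). Of its 75-base windows, 37.8% occur in another annotated gene, mainly its processed pseudogenes. *Tubb5*, the general β-tubulin of dividing cells, was at 123 and 191 TPM against 140.0 and 128 TPM, and *Tubb3*, known from neurons, at 41.6 and 125 TPM against 61.8 and 54.4 TPM. Both KO-labelled values of these genes sat between the controls. *Tubb2a* was at 20.6 and 10.2 TPM against 11.6 and 9.08 TPM, and *Tubb6* at 14.1 and 4.94 TPM against 14.3 and 9.64 TPM, again with overlap. *Tubb4a* (0.41 to 3.26 TPM) and *Tubb2b* (0.38 to 1.79 TPM) were tested at low levels and overlapped, and *Tubb1*, the platelet isotype, stayed at or under 0.45 TPM.

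**Figure D2:**
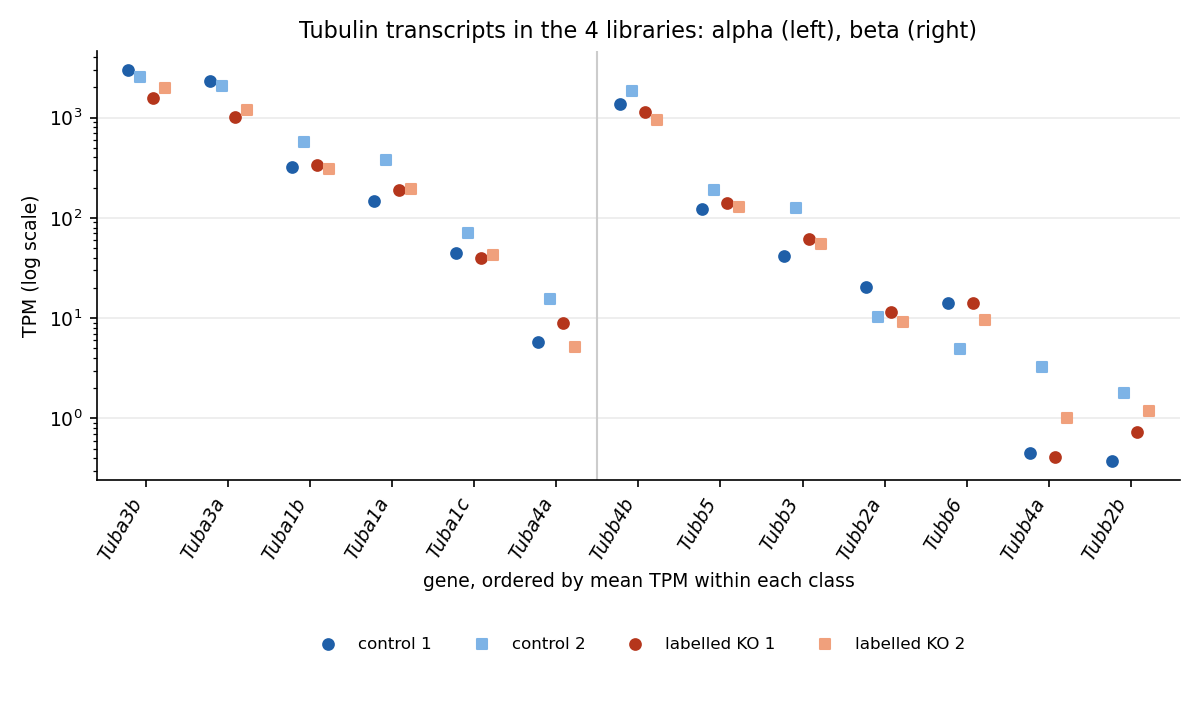
TPM (log axis) of the 6 α-tubulins and 7 β-tubulins tested, each point a library, with controls in blue and KO-labelled libraries in red. As deposited, *Tuba3b*, *Tuba3a*, *Tuba1c* and *Tubb4b* are lower in both KO-labelled libraries than in both controls, whereas for *Tuba1a*, *Tubb5* and *Tubb3* both red points sit between the controls.

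Because TPM is per length, the isotypes can be summed. All α-tubulins together came to 5776 and 5606 TPM in the controls, against 3175 and 3677 TPM in the KO-labelled libraries. The controls lay close together, and the means were 5691 ± 120.3 and 3426 ± 355 TPM (SD, n = 2 each), a 1.66-fold difference whose exact two-sided permutation p of 0.333 is the smallest that 2 against 2 libraries allow. *Tuba3a* and *Tuba3b* summed to 5256 and 4577 TPM against 2601 and 3130 TPM, 1.72-fold apart. They provided 91.0% and 81.6% of the α-tubulin RNA in the controls, against 81.9% and 85.1% in the KO-labelled libraries, so their share overlapped between groups although their sum did not. The 3 *Tuba1* genes summed to 514 and 1013 TPM against 566 and 542 TPM, with control 2 apart from the other libraries. The α-tubulin sum was lower by 0.71 on the log2 scale with control 2 alone as control and by 0.76 with control 1 alone.

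The β-tubulins summed to 1574 and 2195 TPM in the controls, against 1375 and 1157 TPM in the KO-labelled libraries (means 1884 ± 439 and 1266 ± 154 TPM, SD, n = 2 each, exact permutation p = 0.333). Here the control chosen mattered, since the log2 difference was -0.32 without control 2 and -0.80 without control 1, beside -0.56 with both. *Tubb4b* held 87.3% and 84.7% of the sum in the controls and 83.3% and 82.4% in the KO-labelled libraries. *Tubb5* held 7.81% and 8.72% in the controls against 10.2% and 11.1%. Both shares were separated between the groups, by steps of a few percent that the same permutation limit applies to. The ratio of α- to β-tubulin RNA was 3.67 and 2.55 in the controls and 2.31 and 3.18 in the KO-labelled libraries, an overlap. As a share of all TPM, α- and β-tubulins together made up 0.735% and 0.780% in the controls and 0.455% and 0.483% in the KO-labelled libraries.

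**Figure D3:**
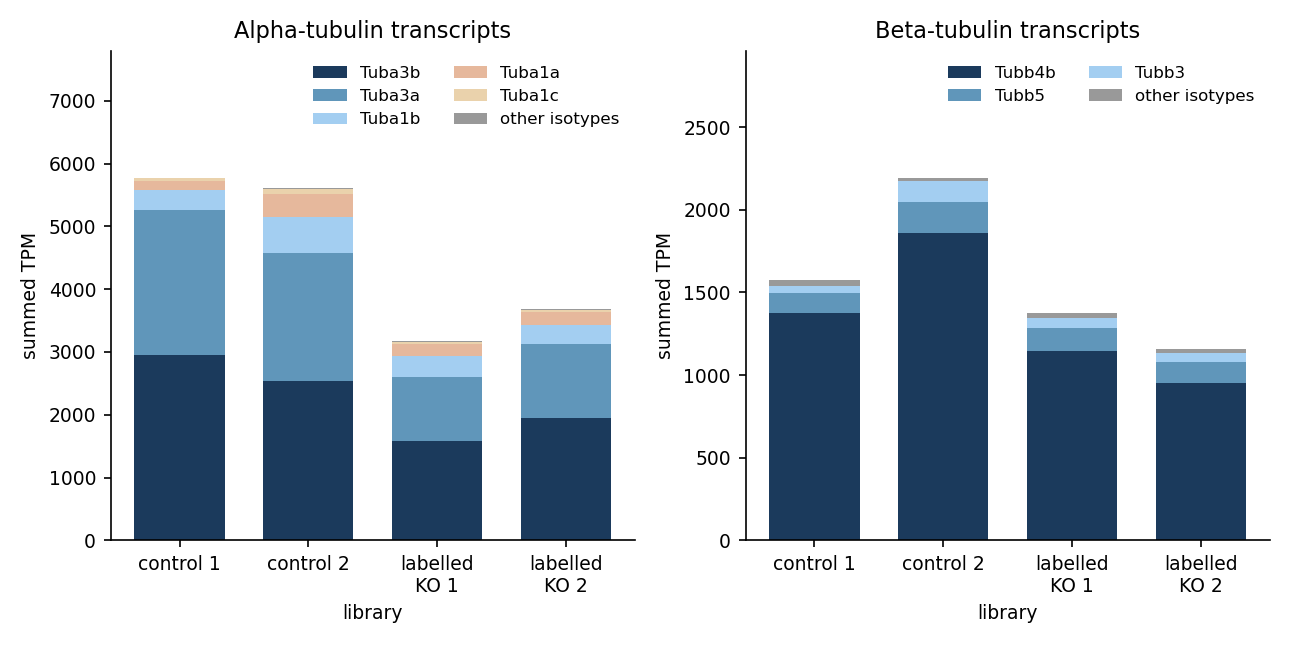
Summed TPM of α-tubulin (left) and β-tubulin (right) genes in each library, stacked by gene, with axes from 0 that differ between the panels. The α-tubulin bars of the KO-labelled libraries (3175 and 3677 TPM) are lower than those of both controls (5776 and 5606 TPM), with *Tuba3a* and *Tuba3b* the main layers in every library.

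Among the genes of microtubule nucleation, 3 of the 5 γ-tubulin complex genes were higher in both KO-labelled libraries as deposited and none was lower. Of all genes 38.6% were higher in both and 12.1% lower. γ-tubulin itself, *Tubg1*, was at 37.0 and 76.0 TPM in the controls, against 52.1 and 58.8 TPM in the KO-labelled libraries, between the controls, with a log2 fold change of 0.060 that became -0.26 after median-ratio scaling and -0.14 after quantile normalization. Its partners in the ring, the γ-tubulin complex proteins, summed to 221 and 206 TPM against 265 and 274 TPM (exact permutation p = 0.333, the smallest possible). *Tubgcp2*, with *Tubgcp3* a core component and the most abundant of them, was at 88.6 and 98.4 TPM against 97.3 and 98.0 TPM (mean 93.5 ± 6.91 and 97.6 ± 0.474 TPM, SD, n = 2 each). *Tubgcp3* was at 28.3 and 39.8 TPM against 52.9 and 46.0 TPM, higher in both KO-labelled libraries as deposited (log2 fold change 0.54, SE 0.27, adjusted p = 0.416), but with overlap after median-ratio scaling (0.22) and quantile normalization (0.30). *Tubgcp5* was at 32.0 and 25.5 TPM against 39.6 and 41.6 TPM, also without overlap (log2 fold change 0.49, adjusted p = 0.412). *Tubgcp6*, a large component of the full ring, was at 17.0 and 13.5 TPM against 25.9 and 26.6 TPM. It was the member that was higher at an unadjusted p under 0.05, with a log2 fold change of 0.75 (SE 0.28, unadjusted p = 0.0498, adjusted p = 0.346), and 13.1% of its exon bases overlap *Selenoo*.

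*Tubgcp4* was at 55.2 and 28.4 TPM against 49.0 and 61.8 TPM and overlapped, with 50.6% of its exon bases shared with the neighbouring *Trp53bp1*. The median log2 fold change of the 5 complex genes was 0.49, 0.17 after median-ratio scaling and 0.21 after quantile normalization. Under these scalings 3, 2 and 2 of them were higher without overlap, beside 38.6%, 23.1% and 27.8% of all genes. The value of *Tubgcp2* turned sign, from 0.06 to -0.26 and -0.081. δ-tubulin and ε-tubulin, which belong to centriole triplets, differed in direction. *Tube1* was at 13.7 and 11.0 TPM against 21.3 and 19.7 TPM, higher in both KO-labelled libraries (log2 fold change 0.70, SE 0.30, adjusted p = 0.379). *Tubd1* was at 28.9 and 18.8 TPM against 16.6 and 21.2 TPM, with overlap. *Tubg2* was between 0.14 and 0.34 TPM throughout.

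The folding cofactors, which take tubulin from the chaperonin and join α to β, differed little in sum. *Tbca*, a β-tubulin chaperone and the most abundant, was at 718 and 909 TPM in the controls, against 789.7 and 850.3 TPM in the KO-labelled libraries (means 814 ± 135 and 820.0 ± 42.8 TPM, SD, n = 2 each; log2 fold change 0.020). *Tbcb*, its counterpart for α-tubulin, was at 138 and 241 TPM against 133 and 129 TPM, lower without overlap (log2 fold change -0.48, SE 0.32, adjusted p = 0.530), and 23.0% of its exon bases overlap *Polr2i*. *Tbcc*, which triggers release of the finished dimer, was at 52.2 and 47.4 TPM against 38.4 and 43.0 TPM (log2 fold change -0.29, adjusted p = 0.549). *Tbcd*, part of the same assembly, was at 23.0 and 20.6 TPM against 23.3 and 27.2 TPM, just above both controls, with a log2 fold change of 0.20 that became -0.11 after median-ratio scaling and -0.075 after quantile normalization. *Tbce* was at 30.2 and 24.4 TPM against 28.7 and 25.6 TPM.

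Most of the glutamylases, the TTLL enzymes that add glutamates to tubulin tails, were at lower values in the KO-labelled libraries. Of 8 tested, 5 were lower in both (62.5%, beside 12.1% of all genes), 1 was higher in both (12.5%, beside 38.6%) and 2 overlapped. Median-ratio scaling also gave 5 lower and 1 higher, when 22.3% and 23.1% of all genes were. The median log2 fold change was -0.73, -1.03 after median-ratio scaling and -0.97 after quantile normalization. As deposited the median was -1.12 against control 1 alone and -0.22 against control 2 alone. *Ttll5*, required for sperm motility and the most abundant by mean, was at 122 and 49.8 TPM in the controls against 58.2 and 69.1 TPM in the KO-labelled libraries (means 85.8 ± 50.9 and 63.6 ± 7.76 TPM, SD, n = 2 each), so that the KO-labelled values sat between the controls. *Ttll13*, an elongating glutamylase, was at 113 and 57.7 TPM against 38.7 and 52.7 TPM (log2 fold change -0.82, SE 0.40, adjusted p = 0.413). *Ttll1*, the catalytic subunit of the polyglutamylase complex needed for sperm tails, was at 43.9 and 20.1 TPM against 12.8 and 18.7 TPM (log2 fold change -0.90, SE 0.48, adjusted p = 0.440). In both genes control 2 was closer to the KO-labelled libraries than to control 1.

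*Ttll9*, also needed for sperm motility, was at 16.2 and 12.6 TPM against 8.04 and 9.78 TPM, where the controls lay closer together (log2 fold change -0.63, SE 0.34, adjusted p = 0.447). *Ttll11* was at 9.27 and 2.87 TPM against 2.11 and 2.70 TPM, and *Ttll7* at 1.76 and 1.10 TPM against 0.70 and 0.82 TPM, both lower in the KO-labelled libraries by small margins over control 2. *Ttll6*, a glutamylase of cilia, was at 37.1 TPM in control 1 and at 3.96 TPM in control 2, with 4.62 and 5.88 TPM in the KO-labelled libraries. The log2 fold change of -1.14 (SE 1.06) was -2.62 against control 1 alone and 0.33 against control 2 alone. *Ttll4*, which adds the first glutamate of a chain and also acts on histone chaperones, was higher instead, at 44.0 and 25.5 TPM against 57.9 and 60.1 TPM (log2 fold change 0.80, SE 0.33, adjusted p = 0.368). *Ttll2* stayed at or under 0.35 TPM.

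Of the 5 cytosolic carboxypeptidases tested, which shorten or remove glutamate chains, *Agbl4* differed most of all members. Its level was 30.8 and 10.1 TPM in the controls, against 3.18 and 3.82 TPM in the KO-labelled libraries (means 20.5 ± 14.6 and 3.50 ± 0.453 TPM, SD, n = 2 each). The KO-labelled libraries lay close together and below both controls, which were themselves far apart. *Agbl4* had a log2 fold change of -2.07 (SE 0.62, unadjusted p = 0.0261, adjusted p = 0.319), which was -2.83 against control 1 alone and -1.31 against control 2 alone. In the values as deposited no other member combined separated groups with a log2 fold change of at least 1 in size. After median-ratio scaling *Tuba3a* (-1.31), *Ttll1* (-1.21), *Ttll13* (-1.14) and *Ttll11* (-1.13) did so too, and after quantile normalization *Ttll6* (-1.50), *Ttll1* (-1.22), *Ttll11* (-1.14) and *Ttll13* (-1.06). None of the 75-base windows of *Agbl4* occurs in another gene.

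*Agbl5*, which removes the glutamate at the branch point and was the most abundant of these enzymes, was at 401 and 148 TPM in the controls, against 147 and 196 TPM in the KO-labelled libraries (means 274 ± 179 and 171 ± 34.2 TPM, SD, n = 2 each). Control 1 stood apart and the other libraries overlapped. *Agbl2* also differed between the controls, at 160.1 and 60.6 TPM, with 104 and 150.4 TPM in the KO-labelled libraries. *Agtpbp1*, the enzyme lost in *pcd* mice with Purkinje cell degeneration and male sterility, was at 105 and 52.8 TPM against 118 and 138 TPM, above both controls (log2 fold change 0.77, SE 0.38, adjusted p = 0.418), but overlapped after median-ratio scaling, with a log2 fold change of 0.45. *Agbl3* was at 37.7 and 35.6 TPM against 42.5 and 46.8 TPM, with a log2 fold change of 0.28 that became -0.041 after median-ratio scaling and 0.0089 after quantile normalization, with overlap in both. *Agbl1* was listed at 0 in all 4 libraries. Deglutamylase RNA summed to 734 and 307 TPM in the controls, against 415 and 535 TPM in the KO-labelled libraries, and glutamylase RNA to 387 and 174 TPM against 183 and 220.1 TPM. The ratio of glutamylase to deglutamylase RNA, a quantity chosen after its values were seen, was 0.527 and 0.565 in the controls and 0.441 and 0.411 in the KO-labelled libraries, separated although neither sum was (exact permutation p = 0.333, the smallest possible).

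The remaining enzymes showed no common direction. *Ttll3*, a glycylase of cilia and the only tested enzyme that adds glycines, was at 13.6 and 3.43 TPM against 4.90 and 7.56 TPM, between the controls, while *Ttll8* (0.54 to 1.06 TPM) and *Ttll10* (0.28 to 0.59 TPM) had means under 1 TPM. *Ttll12*, a family member without a known glutamylase activity, was at 14.1 and 27.7 TPM against 22.7 and 23.0 TPM. *Atat1*, which acetylates α-tubulin in the microtubule lumen, was at 24.4 and 24.3 TPM in the controls, against 34.1 and 31.2 TPM in the KO-labelled libraries. The controls were nearly equal there, and the log2 fold change was 0.41 (SE 0.23, adjusted p = 0.463) as deposited, 0.092 after median-ratio scaling and 0.14 after quantile normalization, with overlap under both. *Hdac6*, the main tubulin deacetylase, was at 51.4 and 102 TPM against 89.3 and 70.1 TPM (means 76.7 ± 35.8 and 79.7 ± 13.6 TPM, SD, n = 2 each), with overlap.

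**Figure D4:**
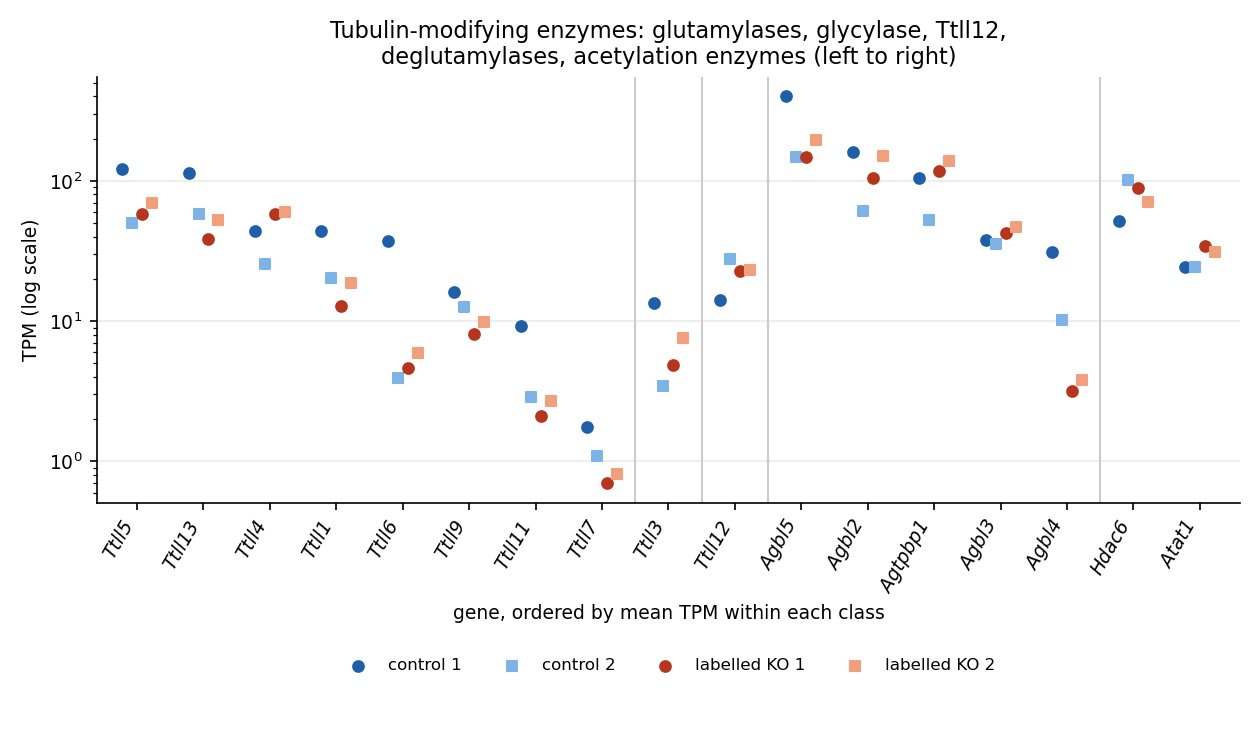
TPM (log axis) of the 17 modifying enzymes tested, by class from left to right (glutamylases, glycylase, *Ttll12*, deglutamylases, acetylation enzymes), each point a library. Control 1 is the highest library for most glutamylases and for *Agbl5*, *Agbl2* and *Agbl4*, and *Agbl4* is at 3.18 and 3.82 TPM in the KO-labelled libraries against 30.8 and 10.1 TPM in the controls.

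The 2 controls pulled many members in different directions, in part by class. Against control 1, the mean of the KO-labelled libraries had a median log2 difference of -1.12 over the 8 glutamylases and -0.048 over the 6 α-tubulins. Against control 2 the same medians were -0.22 and -0.86. The most abundant α-tubulins did not show this split. *Tuba3a* was at -1.07 against control 1 and -0.90 against control 2, and *Tuba3b* at -0.75 and -0.53. Over all genes tested the medians were 0.15 against control 1 and 0.44 against control 2. Both comparisons use the same KO-labelled libraries, so they are not independent. For 17 members control 1 was the highest of the 4 libraries, among them 7 of the 8 glutamylases and *Tuba3a*, *Tuba3b*, *Tubd1*, *Ttll3*, *Agbl2*, *Agbl4* and *Agbl5*. For 15 members control 2 was the highest, among them *Tuba1a*, *Tuba1b*, *Tuba1c*, *Tuba4a*, *Tubb3*, *Tubb4b*, *Tubb5*, *Tubg1* and *Tbcb*. The KO-labelled libraries lay between the controls for 14 members, control 1 being the higher for *Agbl2*, *Tbce*, *Ttll3*, *Ttll5* and *Ttll6* and control 2 for 9 others. Control 1 held the higher sums of pachytene and diplotene markers (9593 TPM) and of Leydig and macrophage markers (2910 and 2540 TPM), and control 2 the higher sum of spermatogonial markers (1166 against 527 TPM). The part of these in the split was not tested.

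**Figure D5:**
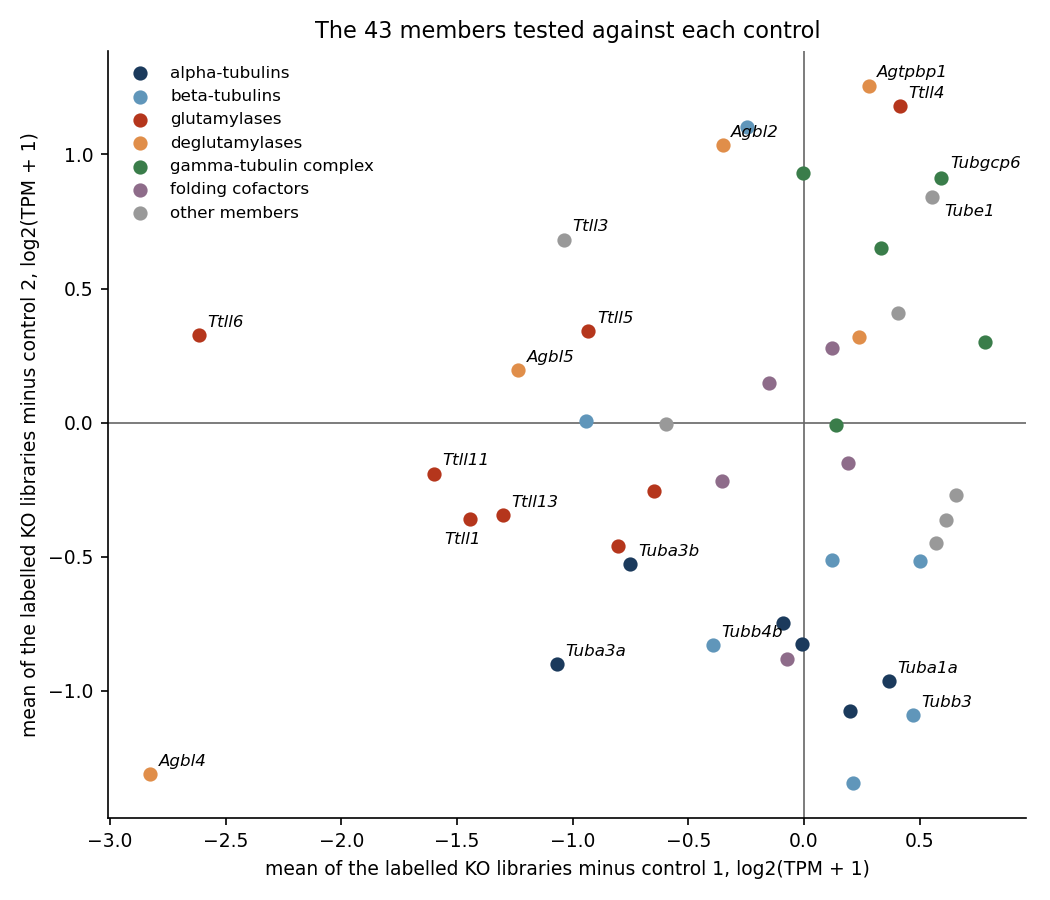
Difference on the log2(TPM + 1) scale between the mean of the KO-labelled libraries and control 1 (horizontal axis) or control 2 (vertical axis) for the 43 members tested, coloured by class, with the same KO-labelled mean on both axes. Glutamylases lie to the left (median -1.12 against control 1 and -0.22 against control 2), and α-tubulins lie low (median -0.86 against control 2 and -0.048 against control 1), with *Agbl4*, *Tuba3a* and *Tuba3b* below 0 on both.

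The size of the differences depended on which control was used. A fit with 1 control takes that control to vary like the KO-labelled libraries, so calls from such fits are not given. Against control 1 alone the log2 difference was -2.83 for *Agbl4* and -1.07 for *Tuba3a*. Against control 2 alone it was -1.31 and -0.90. These members already had the lowest unadjusted limma p among members. The KO-labelled libraries are the same in both comparisons, so the shared direction is no added support.

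Genes that work with the members were read from lists of partners. Of 50 tested, none passed the FDR, 20 were higher in both KO-labelled libraries (40.0%, beside 38.6% of all genes) and 12 lower (24.0%, beside 12.1%). At an unadjusted limma p under 0.05, 10 of the 50 were higher and 1 of the 50 lower. Of the 14512 genes tested, 1549 (10.7%) were higher and 542 (3.73%) lower at that level. Partners in nucleation (augmin subunits, γ-tubulin ring adaptors and centrosome scaffolds) were higher in 10 of 16 (62.5%) and lower in 2 (12.5%), with a median log2 fold change of 0.54, and higher in 7 and lower in 2 after median-ratio scaling, when 23.1% and 22.3% of all genes were. Among them *Akap9*, a centrosome and Golgi scaffold, had the largest difference upwards of all partners as deposited, at 17.5 and 7.24 TPM in the controls against 28.8 and 25.9 TPM in the KO-labelled libraries (log2 fold change 1.20, SE 0.48, adjusted p = 0.365). It was barely ahead of *Ckap5*, a microtubule polymerase (log2 fold change 1.18, SE 0.19), which was ahead after quantile normalization (1.11 against 0.90) and against control 1 alone (1.06 against 0.62). Partners in folding, the chaperonin CCT and prefoldin, were higher in 4 of 18 (22.2%) and lower in 5 (27.8%). The largest difference downwards was that of *Cct6b*, the testis form of a CCT subunit, at 166 and 49.6 TPM against 21.5 and 40.0 TPM (log2 fold change -1.60, SE 0.68, adjusted p = 0.381). *Cct6a*, its general counterpart, was at 289.8 and 339 TPM against 359 and 355 TPM.

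Severing enzymes were higher in 3 of 6 (50.0%) and lower in 1 (16.7%), and subunits of the glutamylase complex or its carriers higher in 1 of 5 (*Cep41*) and lower in 2 (*Tpgs1* and *Tpgs2*), counts too small to read against the shares of all genes. These names, and those that follow, were taken after their values were seen. In the tyrosination cycle, *Ttl*, the ligase that puts the last tyrosine back, overlapped at 1.94 to 3.63 TPM. The vasohibin gene *Vash1* was low but higher in both KO-labelled libraries, at 1.97 and 2.41 TPM against 3.91 and 3.60 TPM. Its log2 fold change was 0.58 (SE 0.38, adjusted p = 0.519), and 0.33 with overlap after quantile normalization. *Ccdc23*, an older symbol of the vasohibin partner *Svbp*, needed to remove that tyrosine, was at 114 and 172 TPM in the controls, against 61.5 and 61.0 TPM in the KO-labelled libraries (log2 fold change -1.18, SE 0.27, adjusted p = 0.310). *Ttc5*, which recognises nascent tubulin and sets off decay of tubulin mRNA when free tubulin is in excess, was at 62.4 and 77.6 TPM against 122 and 128 TPM (log2 fold change 0.83, SE 0.20, adjusted p = 0.310). For *Ccdc23* and *Ttc5* the KO-labelled libraries were nearly alike and lay outside the range of the controls, below it for *Ccdc23* and above it for *Ttc5*. *Sirt2*, another tubulin deacetylase, was at 207 and 158 TPM against 146 and 157 TPM.

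The promoters of the testis α-tubulin pair are shown because both genes had lower TPM as deposited. RefSeq promoter sequences (GRCm38.p6) were found for 45 of the 51 members. Printed are the 250 bases before the annotated start, 5′ to 3′ on the strand of the gene, for *Tuba3a* at chr6:125286082-125286331 on the minus strand and *Tuba3b* at chr6:145615713-145615962 on the plus strand, with CCAAT boxes (CCAAT) and GC boxes (GGGCGG) on either strand in capitals. The RefSeq start of *Tuba3a* differs from that of the GENCODE transcript used for its coding sequence.
Tuba3a: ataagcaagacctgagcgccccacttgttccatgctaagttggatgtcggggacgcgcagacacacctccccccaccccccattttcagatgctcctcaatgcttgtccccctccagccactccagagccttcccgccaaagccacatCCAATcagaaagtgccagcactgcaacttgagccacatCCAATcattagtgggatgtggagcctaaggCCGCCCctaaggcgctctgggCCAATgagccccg
Tuba3b: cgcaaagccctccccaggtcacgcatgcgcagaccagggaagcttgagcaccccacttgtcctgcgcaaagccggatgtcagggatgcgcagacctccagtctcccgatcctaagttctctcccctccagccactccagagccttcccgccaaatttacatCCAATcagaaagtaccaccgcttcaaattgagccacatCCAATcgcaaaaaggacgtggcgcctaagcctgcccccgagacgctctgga
*Tuba3a* holds 3 CCAAT boxes and 1 GC box in this window, and *Tuba3b* holds 2 CCAAT boxes. Over windows of 250 bases before and 50 after the start, CCAAT on either strand was found in 37.4% of all 32851 promoters and in 43.4% of the 53 promoters of members. GGGCGG was found in 35.7% of all promoters and 58.5% of those of members, TGACG in 20.8% and 26.4%, and TATAAA in 13.6% and 5.66%. Matches of different motifs can share letters at their ends, and a match in this window is a description of sequence, not of binding.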

How the data were processed

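GFP-positive cells of 2 control and 2 *Zfp541* KO testes at P18 were compared, grouped by the sample labels. According to the methods and processing notes, reads (TruSeq mRNA, single end, 75 nt) were trimmed with Trim Galore 0.5.0 and cutadapt 1.16, aligned to UCSC mm10 with STAR 2.6.0a and quantified with RSEM 1.3.1. The authors deposited these RSEM estimates as TPM, one value per gene and library. TPM keeps no depth, so depth is unknown and no counting interval can be given. The strand setting of the counting is not given in the sources used here, so reads of overlapping genes cannot be told apart by it. In the files 27 rows carry a date as symbol and were not named. RSEM's own differential analysis was not repeated, since counts were not used here.

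Using R 4.3.3 and limma 3.58.1, log2(TPM + 1) values of genes with a mean of 1 TPM or more were modelled on genotype, using a mean-variance trend, two-sided, with Benjamini-Hochberg adjustment over all 14512 genes at an FDR of 0.05. All adjusted p-values are from limma. The procedure was run on simulated data with effects larger than those of most members. That run does not show how well differences of the size reported here would be found. Sums were compared by exact permutation over libraries. Groups were called separated when their values did not overlap. No library pair held identical values. Members are described by role. Full values with SD are given for members that were separated with a log2 fold change of at least 1 in size and for the most abundant member of each role, and partner genes by counts and by the largest difference in each direction. Members, roles, marker lists, partner lists and this rule were chosen with earlier results of these data known. Transcripts, exon overlap and shared 75-base windows came from GENCODE vM21 (GRCm38) and promoters from RefSeq, read with Python 3.11.15, pandas 2.3.3 and Biopython 1.88. Alternatives covered the pseudocount, filter, scaling, variance trend, replicate block and leaving out each library. No other assay of the study was used here.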

Additional observations from a re-analysis of the deposited data

How the results depend on the processing

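With 2 libraries a group and unknown depth, no difference passed the FDR in limma with all 4 libraries modelled on genotype alone. Counts of separated members are descriptions. No gene passed under a pseudocount of 0.1 or 5, a mean minimum of 5 TPM, no filter, either other scaling, or no variance trend. Median-ratio scaling gave 4 members higher in both KO-labelled libraries (9 as deposited), a median of -0.61 over members (-0.29), -0.0044 over all genes (0.28), and -1.06 for the α-tubulin sum (-0.74). It turned the log2 fold changes of *Agbl3* to -0.041 (0.28) and *Tbcd* to -0.11 (0.20), and quantile normalization turned *Tbcd* to -0.075. Of members whose groups overlapped, *Hdac6*, *Ttll12*, *Tubg1* and *Tubgcp2* turned below 0 under both scalings and *Tbca* under median-ratio scaling. Separation was lost by *Agbl3*, *Atat1*, *Tbcd* and *Tubgcp3* under both, by *Agtpbp1* under median-ratio scaling and by *Tuba3b* under quantile normalization. The cause was not tested beyond the change of scale itself. Under median-ratio scaling 29 of the 43 single-gene values stayed within 1 SD and 12 moved, and under quantile normalization 30 stayed and 12 moved. With 1 library left out, groups separate more easily by construction. Of all genes, 42.9% to 65.8% were then higher and 15.6% to 36.0% lower, against 38.6% and 12.1% with all 4 libraries. Larger counts of separated members there are therefore no finding about members. Counts past the FDR there rest on a group of 1 library and are not interpreted. Leaving out 1 library gave 0 to 6985 genes and 0 to 17 members past the FDR, 10 to 18 members higher and 15 to 24 lower. The highest gene count was without control 1, and without control 2 it was 4123.

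No label says that a replicate number marks a shared animal, litter or day, and deviations of same-numbered libraries correlated at -0.16. With replicate number as a block (replicate block) 0 genes passed, and the smallest adjusted p among members was 0.629. The counts of 9 members higher and 12 lower are fixed there, since a block does not change the values. With the numbers crossed, chosen after seeing the data, 87 genes and 0 members passed, with a smallest adjusted p of 0.265 among members.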
